A study of Mus musculus with 2 samples.

Results

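Bone morphogenetic protein 9 (BMP9) is a circulating ligand made in the liver that acts on endothelial cells, and 10 mouse genes of its receptor and target chain are described here, out of 32285 genes counted. They were listed by name for their place in the pathway, and the rule that picks them uses no measured value: the type I receptor Acvrl1 (ALK1), the co-receptor Eng (endoglin), the type II receptor Bmpr2, the receptor-activated Smad1, the inhibitory Smad6 and Smad7, the target genes Id1, Id2 and Id3, and the target Atoh8. All 10 were found in the count tables. The cells came from mouse livers at postnatal day 15 and were sorted for endothelial and hematopoietic cells, then captured in droplets. A control library was compared with a c-Maf KO library, in which the transcription factor c-Maf (gene Maf) was deleted in endothelial cells. Each library pooled 1 male and 1 female mouse, so each genotype has 1 library and no test between genotypes was possible. The sources used here give neither the strain, nor the driver of the deletion, nor the alleles of the control mice.

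BMP9 and the related BMP10 bind ALK1 together with endoglin and a type II receptor. The complex phosphorylates SMAD1 and SMAD5, which enter the nucleus with SMAD4 and raise the Id genes. Id proteins lack a DNA-binding region and hold bHLH transcription factors away from DNA, while SMAD6 and SMAD7 feed back on the receptors. In the liver the ligands reach the sinusoidal endothelium directly from the blood, and human loss-of-function mutations in the genes for ALK1 and endoglin cause hereditary hemorrhagic telangiectasia.

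SMAD1 and SMAD5 are known to bind the GC-rich element GGCGCC, and SMAD4 the shorter element GTCT. Stretches upstream of the RefSeq starts of Eng, Smad6 and Id2 are printed as 1 example each of a receptor component, an inhibitory SMAD and an Id gene whose window was in the table used and held such an element outside annotated exons. They are mouse reference sequence from RefSeq, build GRCm38.p6, written 5′ to 3′ on the gene's strand and limited to bases outside annotated exons. Capitals mark GGCGCC and GTCT, the latter in either direction (GTCT or AGAC). Eng is shown at chr2:32646345-32646594, plus strand, Smad6 at chr9:64022060-64022309, minus strand, and Id2 at chr12:25096254-25096342, minus strand. The Eng and Smad6 stretches end at the start, while that of Id2 ends 161 bases short of it and lies in an intron of a longer Id2 transcript in GENCODE.
Eng: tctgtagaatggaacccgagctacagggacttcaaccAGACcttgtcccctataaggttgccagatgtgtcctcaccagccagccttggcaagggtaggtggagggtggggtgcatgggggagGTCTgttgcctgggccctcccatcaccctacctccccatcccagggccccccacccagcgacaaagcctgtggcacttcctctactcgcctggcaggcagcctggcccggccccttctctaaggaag
Smad6: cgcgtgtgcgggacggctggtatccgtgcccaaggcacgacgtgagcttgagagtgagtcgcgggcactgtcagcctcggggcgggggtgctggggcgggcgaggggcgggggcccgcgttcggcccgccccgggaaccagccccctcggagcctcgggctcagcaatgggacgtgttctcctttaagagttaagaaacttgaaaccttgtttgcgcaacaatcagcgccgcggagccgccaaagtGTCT
Id2: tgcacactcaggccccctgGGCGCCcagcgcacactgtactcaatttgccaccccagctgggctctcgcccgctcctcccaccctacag

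Promoter windows of 300 bases, from 250 before to 50 after the start, were in the RefSeq table for 7 of the 10 genes. Over their full windows, GGCGCC occurred 1 time in Id2 and 1 time in Bmpr2, and was not among the letters of the windows of Eng, Smad1, Smad6, Id3 and Atoh8. GTCT in either direction occurred 3 times in Id3, 2 times in Eng and in Smad6, and 1 time in Id2. In Smad6 the match that ends the printed stretch runs on past the start as GTCTAGAC. Of 32851 promoter windows of this length, 11.9% held GGCGCC, 88.0% held GTCT, 9.50% held both, as Id2 did, and 0.213% held GTCTAGAC. These matches describe letters only.

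The deposited annotation assigned 15835 cells to 23 clusters, and the endothelial clusters S, S2, KOS_1, KOS_2, KOS_3, C-EC and PV held 2948 control and 2991 c-Maf KO cells. Their names are the authors', and the sources used here leave them unexplained. Here PV stands for large vessel cells, C-EC for cycling cells, and the other 5 clusters for sinusoidal cells, from their names and markers. The median endothelial cell held 4986 transcript molecules (unique molecular identifiers, UMIs) in control and 7320.0 in c-Maf KO. The libraries shared 25 barcodes, 21 of them annotated. Levels below are CPM, a gene's UMIs scaled to a total of 1000000 UMIs in the same cells, with exact 95% Poisson intervals. Ratios divide c-Maf KO by control and are on a log2 scale. A call needed a ratio of at least 1.5-fold, an interval that leaves out equality and 50 UMIs or more, and is a statement of size in these 2 libraries, not a test. All intervals cover counting error only, not variation between mice.

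Maf itself stood at 2070.1 CPM in control and 162 in c-Maf KO endothelial cells, a log2 ratio of -3.68, but the c-Maf KO library was not uniform. Its S and S2 cells, 336 in number, held 1732 CPM of Maf, close to the 2158 of the 2779 control S and S2 cells. In KOS_1, the largest c-Maf KO cluster, the level was 9.32, and in KOS_3 it was 11.1. Maf was also lower in c-Maf KO cells of C-EC (1382 in control and 39.9 in c-Maf KO) and PV (228 and 39.4). Outside the endothelium, Kupffer cells (K) held 797 and 529, a log2 ratio of -0.59. Of the c-Maf KO S and S2 cells, 247 were female-type, 0 were male-type and 89 were neither. Female-type means an Xist UMI and no UMI of the Y-linked Ddx3y, Uty, Kdm5d and Eif2s3y, and male-type the reverse. Every comparison of S and S2 between the libraries below is therefore one between cells that both held Maf transcripts.

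Over all endothelial cells, the co-receptor Eng and the signal carrier Smad1 stood lower in c-Maf KO than in control, while the receptors Acvrl1 and Bmpr2 and the inhibitory SMADs differed by less than 1.5-fold. The Id genes went in different directions: Id3 was lower, and Id1 and Id2 were higher, all short of the 1.5-fold rule. Of the 10 genes, 0 were called higher and 2 lower, beside 14.2% higher and 15.5% lower among the 11927 genes with enough UMIs. These shares do not set the 10 genes apart from other genes. Their median log2 ratio was -0.27, against -0.08 over all genes tested. A list of 10 markers of endothelial cells in general had a median of -0.26, with 0 called higher and 2 lower. The median of the 10 genes therefore does not set them apart from those markers.

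**Figure D1:**
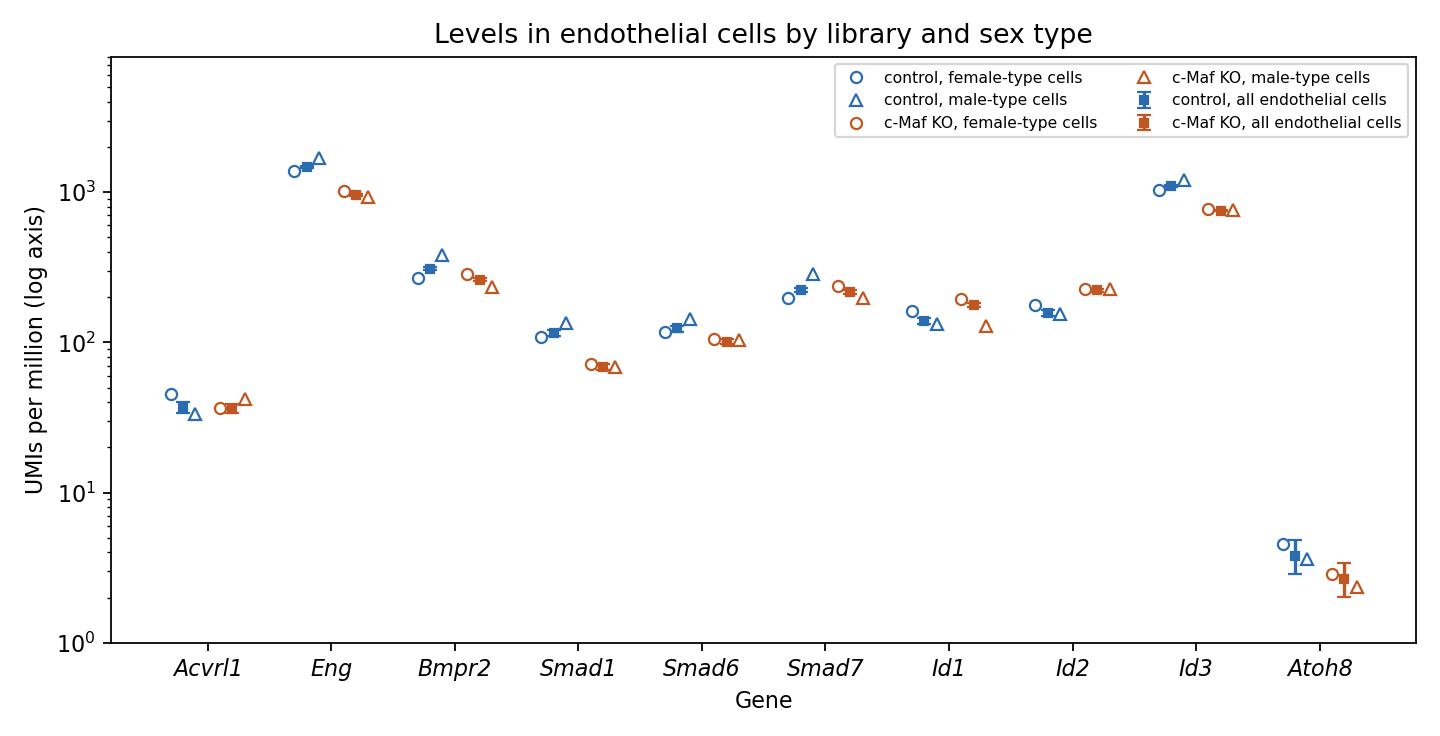
Level of each gene in endothelial cells, in CPM on a log axis, with 1 library per genotype. Squares are all endothelial cells with 95% Poisson intervals, circles female-type and triangles male-type cells; the blue and orange symbols of Eng, Smad1 and Id3 are apart, while those of Acvrl1, Bmpr2, Smad7 and Id1 overlap.

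Eng, the receptor component with the largest ratio, stood at 1466 CPM in control cells (interval 1447 to 1484) and 959 in c-Maf KO cells (947 to 972). The log2 ratio was -0.61 (-0.64 to -0.58), just past the rule. Its levels were 1386 in control female-type, 1679.6 in control male-type, 1015 in c-Maf KO female-type and 928 in c-Maf KO male-type cells. Both c-Maf KO values lay under both control values. In such sums, fewer cells using a gene and less RNA per cell cannot be told apart. With TMM scaling the ratio was -0.52, which misses the rule. After thinning each cell to 1128 UMIs, the share with an Eng UMI was 74.1% in control and 61.2% in c-Maf KO cells, while at full depth the shares were 86.7% and 87.2%. The same thinned share in cluster B3, taken as B cells that should lack Eng, was 1.56% and 0.626%. Median depths there were 4414 and 3612 UMIs.

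Acvrl1, the receptor that gives endothelial cells their sensitivity to BMP9, was level: 36.9 CPM in control (34.1 to 40.0) and 36.2 in c-Maf KO cells (33.8 to 38.8), a log2 ratio of -0.03 (-0.18 to 0.13). Bmpr2, the type II partner that phosphorylates ALK1, stood at 310.1 (302 to 319) and 262 (256 to 269), a log2 ratio of -0.24. Their types overlapped between genotypes. For Bmpr2 the control male-type cells were highest at 379.7 and the control female-type cells were at 268, between the c-Maf KO types at 286 and 234. The difference between the control types, 0.50 on the log2 scale (0.41 to 0.60), was thus larger than that between the libraries.

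Smad1 carried the largest ratio of the 10 genes. It stood at 116 CPM in control (111 to 121) and 68.7 in c-Maf KO cells (65.3 to 72.2), a log2 ratio of -0.75 (-0.85 to -0.66). Control female-type and male-type cells held 108 and 134, and c-Maf KO cells 71.9 and 68.9, without overlap. In thinned cells the share with a Smad1 UMI was 10.6% in control and 6.67% in c-Maf KO cells. With the control proportions of S, S2, C-EC and PV applied to both libraries, which leaves out the KOS clusters and keeps the c-Maf KO cells with Maf transcripts, the Smad1 ratio was -0.06 and the Id2 ratio -0.03. Smad6, an early target and inhibitor of BMP receptors, stood at 124 (118 to 129) and 101 (96.9 to 105), with a ratio of -0.29. Smad7, which also restrains TGF-beta receptors, was level at 224 (217 to 231) and 217 (211 to 223).

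Id1 stood at 139 CPM in control (133 to 145) and 176 in c-Maf KO cells (171 to 182), a log2 ratio of 0.34. The types did not follow the library: c-Maf KO male-type cells were lowest at 128, beside 132 in control male-type, 162 in control female-type and 193 in c-Maf KO female-type cells. Id2 stood at 156 (150.3 to 163) and 222 (215 to 228), a ratio of 0.50 (0.43 to 0.57). Its c-Maf KO types, at 227 and 225, both lay over the control types at 176 and 154. Id3 stood at 1106 (1089.7 to 1122) and 755 (744 to 766), a ratio of -0.55 (-0.58 to -0.52), which misses the 1.5-fold rule narrowly. Its types were 1039 and 1213 in control and 778 and 758 in c-Maf KO cells. Summed over all endothelial cells, Id2 and Id3 therefore differed in opposite directions. Among matched clusters, this also held in C-EC, at 0.87 for Id2 and -0.55 for Id3. It did not hold in S2 (-0.13 and -0.26) or PV (0.69 and 0.22). In S, Id2 was level at 0.03 (-0.27 to 0.32) and Id3 was at -0.29.

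Atoh8, a bHLH transcription factor known as a BMP target, was rare, with 61 UMIs in control and 60 in c-Maf KO endothelial cells. Its level was 3.76 (2.87 to 4.83) and 2.65 (2.02 to 3.41) CPM, and the interval of the ratio, -1.04 to 0.04, included equality. In the thinned cells 0.309% and 0.290% held an Atoh8 UMI, beside 0.120% and 0% of the B cells, so little can be read from its share. By non-overlap of the types alone, 1 gene of the 10 (Id2) was higher and 5 (Eng, Smad1, Smad6, Id3 and Atoh8) were lower, beside 28.8% and 39.6% of all genes tested. This count, unlike the calls, asks for no minimum size of difference.

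The calls differed when counted by type. Typing leaves out 1330 control and 971 c-Maf KO endothelial cells that were neither type, here and in the levels by type above. In female-type cells (772 control, 1692 c-Maf KO), 0 of the 10 genes were called in either direction, beside 11.7% of genes higher and 13.6% lower. In male-type cells (846 control, 328 c-Maf KO), 0 were higher and 4 were lower, beside 14.2% and 23.2%. Those 4 were Eng at -0.86, Bmpr2 at -0.70, Smad1 at -0.96 and Id3 at -0.68. In the sinusoidal clusters alone, again 0 were higher and 4 lower, beside 13.4% and 15.4% of genes: Eng at -0.64, Smad1 at -0.77, Id3 at -0.60 and Atoh8 at -0.97.

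The sinusoidal cells were then split by cluster. Between S cells of the libraries, 0 genes were called in either direction, beside 6.24% higher and 2.55% lower. Between S2 cells, again 0 were called, beside 3.36% and 3.34%. Eng nonetheless lay lower in c-Maf KO cells in both, at 1122 in control and 891 in c-Maf KO S cells and at 1603 and 1126 in S2 cells, a log2 ratio of -0.33 and -0.51. Id3 did likewise, at -0.29 in S and -0.26 in S2, each interval excluding equality. Smad1 was level in S2, at 126 CPM in each library. Id1 was higher in c-Maf KO S2 cells, at 189 against 128, a ratio of 0.56 (0.33 to 0.78) short of the rule. In S cells the Id1 ratio was -0.01, and over S and S2 together it was 0.32 (0.14 to 0.49). In female-type S and S2 cells together, Id1 was at 148 in control and 162 in c-Maf KO, a ratio of 0.13 (-0.07 to 0.33). Female-type S2 cells alone were not compared.

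KOS_1 cells, at almost no Maf, were set against control S and S2 cells, since control has 1 cell in KOS_1. Here 1 gene of the 10 was called higher and 3 lower, beside 14.3% and 17.3% of genes. Id2 was higher, 155 in control S and S2 and 234 in KOS_1 (log2 ratio 0.60). Eng was lower at 1494 and 968 (-0.63), Smad1 at 118 and 67.4 (-0.81), and Atoh8 at 3.31 and 1.85 (-0.83). Within female-type cells 0 of the 10 were higher and 1 was lower (Smad1, -0.74), beside 13.0% and 16.0% of genes. Within male-type cells 1 was higher (Id2, 0.59) and 5 were lower (Eng, Bmpr2, Smad1, Smad7 and Id3), beside 13.0% and 24.0%.

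A comparison inside the c-Maf KO library holds the library constant. KOS_1 cells over the S and S2 cells of that library gave 1 gene called higher and 1 lower, beside 10.4% and 13.1% of genes. Id2 stood at 139 CPM in S and S2 and 234 in KOS_1, a log2 ratio of 0.75 (0.57 to 0.94). Smad1 stood at 101 and 67.4, a ratio of -0.59 (-0.81 to -0.36). Taken apart, S cells of that library held 76.3 and S2 cells 126 CPM of Smad1, so the ratio of KOS_1 was -0.19 (-0.53 to 0.19) over S and -0.90 (-1.17 to -0.61) over S2. The Smad1 call thus rests on S2 cells, while Id2 passed the rule over S (0.84) and over S2 (0.66). Over S and S2 together, Eng was at 1009.9 and 968, a ratio of -0.06 (-0.13 to 0.01). Acvrl1, Bmpr2, Smad6 and Id1 likewise had intervals that include equality there. Taken apart, Eng was 0.12 (0.02 to 0.22) over S and -0.22 (-0.31 to -0.13) over S2. Bmpr2 was 0.24 (0.05 to 0.45) and -0.34 (-0.50 to -0.18), and Id1 0.38 (0.13 to 0.66) and -0.14 (-0.35 to 0.09). All of these were under 1.5-fold. For Acvrl1 and Smad6 the intervals included equality over each cluster.

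The same contrast in female-type cells alone, 247 S and S2 against 920 KOS_1 cells, sets cells of a single mouse side by side if the types hold. Maf stood at 1800.3 and 9.94 CPM. Again Id2 was called higher and Smad1 lower, 1 gene in each direction, beside 9.86% and 13.1% of genes. Id2 was at 140.3 and 238 (log2 ratio 0.76), Smad1 at 105 and 66.9 (-0.65), Eng at 1042 and 1006 (-0.05) and Id3 at 915 and 759 (-0.27). Eng in female-type S and S2 cells was 1423 in control and 1042 in c-Maf KO, a ratio of -0.45 (-0.52 to -0.38), in cells of both libraries that held Maf transcripts. The clusters were formed by the authors from the same transcripts, so contrasts between clusters are descriptions.

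**Figure D2:**
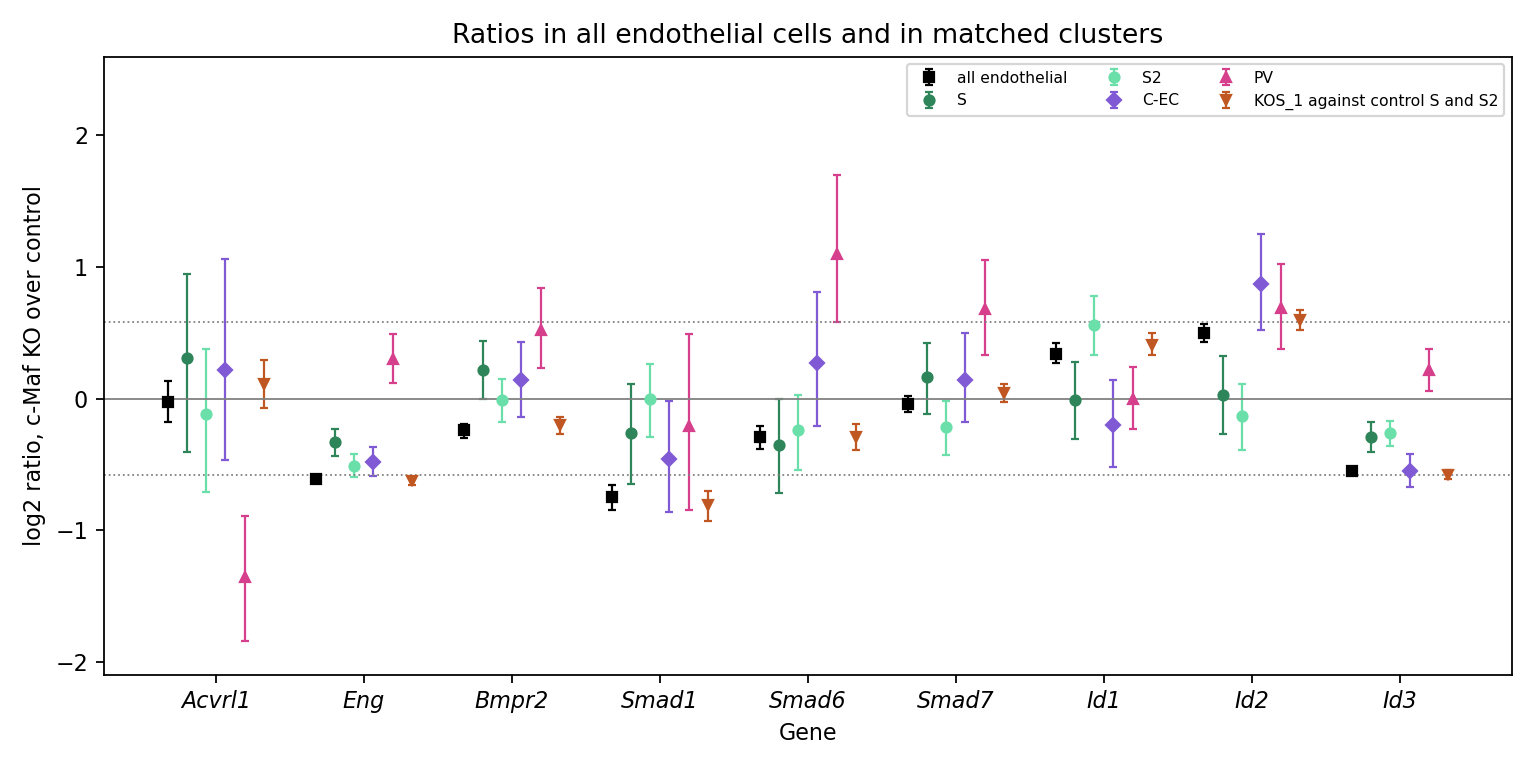
Ratio of c-Maf KO to control (log2 axis) for 9 genes in all endothelial cells, in matched clusters, and in KOS_1 cells against control S and S2 cells; bars are 95% counting intervals and dotted lines mark 1.5-fold. Acvrl1 in PV lies far below the line at -1.36 and Smad6 in PV above it at 1.10, while the points of S and S2 stay within the dotted lines.

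KOS_3 and KOS_2 differed from KOS_1. Id3 was at 342 CPM in KOS_3, against 745 in KOS_1 and 889 in the S and S2 cells of the same library. Acvrl1 (48.3) and Smad7 (296) were over their S and S2 levels of 30.3 and 189 in KOS_3. That made 2 of the 10 genes called higher and 1 lower (Id3), beside 12.3% and 18.6% of genes. In the shallow cluster KOS_2, with a median of 1644 UMIs, Eng (672), Bmpr2 (117), Smad1 (37.0), Smad6 (65.0), Smad7 (114) and Id3 (587) lay under those S and S2 cells by more than 1.5-fold. These are 6 genes called lower and 0 higher, beside 37.9% and 8.03% of genes, so lower calls were common in that cluster. Acvrl1 was at 19.8, a ratio of -0.60 (-1.37 to 0.09) whose interval includes equality, and Id1 and Id2 were not called. In cycling C-EC cells (89 and 408), 1 of the 10 genes was called higher and 0 lower, beside 5.70% and 14.6%. It was Id2, at 111 in control and 204 in c-Maf KO cells, a ratio of 0.87 (0.52 to 1.25), and 0.83 in female-type cells.

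Large vessel (PV) cells had their own pattern in both libraries. Within the control library, PV over S and S2 gave 3 genes called higher and 3 lower, beside 11.0% and 11.9% of genes. Acvrl1 was 33.2 in S and S2 and 175 in PV (log2 ratio 2.41), Id1 129 and 472 (1.87) and Id2 155 and 233 (0.59). Eng (1494 and 728, -1.04), Smad1 (118 and 66.8, -0.80) and Smad6 (128 and 76.0, -0.73) were lower. Within the c-Maf KO library, 5 were called higher and 1 lower, beside 10.9% and 13.7%. Acvrl1 (1.16), Smad6 (0.73), Smad7 (0.69), Id1 (1.55) and Id2 (1.43) were higher and Smad1 (-0.79) was lower. Summed over all PV cells, Smad6 thus stood under the sinusoidal level in control and over it in c-Maf KO. In the 40 control PV cells with under 2 UMIs of stellate and mesenchymal markers, Smad6 was at 101 (66.4 to 147). Id2 was at 149 (107 to 203) there. Those intervals include the control S and S2 levels of 128 and 155. Acvrl1 (231), Id1 (519), Eng (866) and Smad1 (63.5) stayed on the same side of the sinusoidal level.

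Between the libraries, PV cells (56 control, 135 c-Maf KO) gave 3 genes called higher and 1 lower, beside 6.08% and 6.26%. Acvrl1 was the lower gene, with 76 UMIs in each library, a level of 175 (138 to 219) in control and 68.0 (53.6 to 85.2) in c-Maf KO cells, and a ratio of -1.36 (-1.84 to -0.89). Smad6 was at 76.0 (52.3 to 107) and 165 (142 to 190.3), a ratio of 1.10, Smad7 at 189 and 303 (0.68), and Id2 at 233 and 377 (0.69). Id1 summed to 472 and 473, but its types differed in direction: 391 and 516 in female-type cells (0.40, 0.12 to 0.70) and 851 and 395 in male-type cells (-1.12). Acvrl1 was therefore lower while both inhibitory SMADs were higher. The other receptor genes were not lower in PV. Bmpr2 was at 258 and 372 (0.52, 0.23 to 0.84) and Eng at 728 and 896 (0.30, 0.12 to 0.49), both under 1.5-fold.

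By type, the PV ratios in female-type cells (41 and 87) were -1.88 for Acvrl1, 1.42 for Smad6, 0.79 for Smad7 and 0.72 for Id2. In male-type cells (9 and 30), Acvrl1 had 5 and 25 UMIs and a ratio of -0.03 (-1.33 to 1.82), Smad6 was 0.23, Smad7 0.18 and Id2 1.33. Of the 4 genes called in all PV cells, Id2 passed the rule in both types. In male-type cells it did so on 5 and 65 UMIs, with an interval of 0.17 to 3.13. Acvrl1 had too few UMIs for a call there. The male-type intervals of Smad6 and Smad7 included both equality and their ratios in all PV cells. With 9 control cells, the male-type ratios therefore cannot show whether Id2 differs from the other genes in this. Summed stellate and mesenchymal markers in PV were 1426 in control and 589 in c-Maf KO cells, and hepatocyte markers 779 and 112 CPM. In PV cells with under 2 stellate UMIs, Acvrl1 was -1.60, Smad6 0.90, Smad7 0.48 and Id2 1.34. The part of hepatocyte transcripts was not tested.

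**Figure D3:**
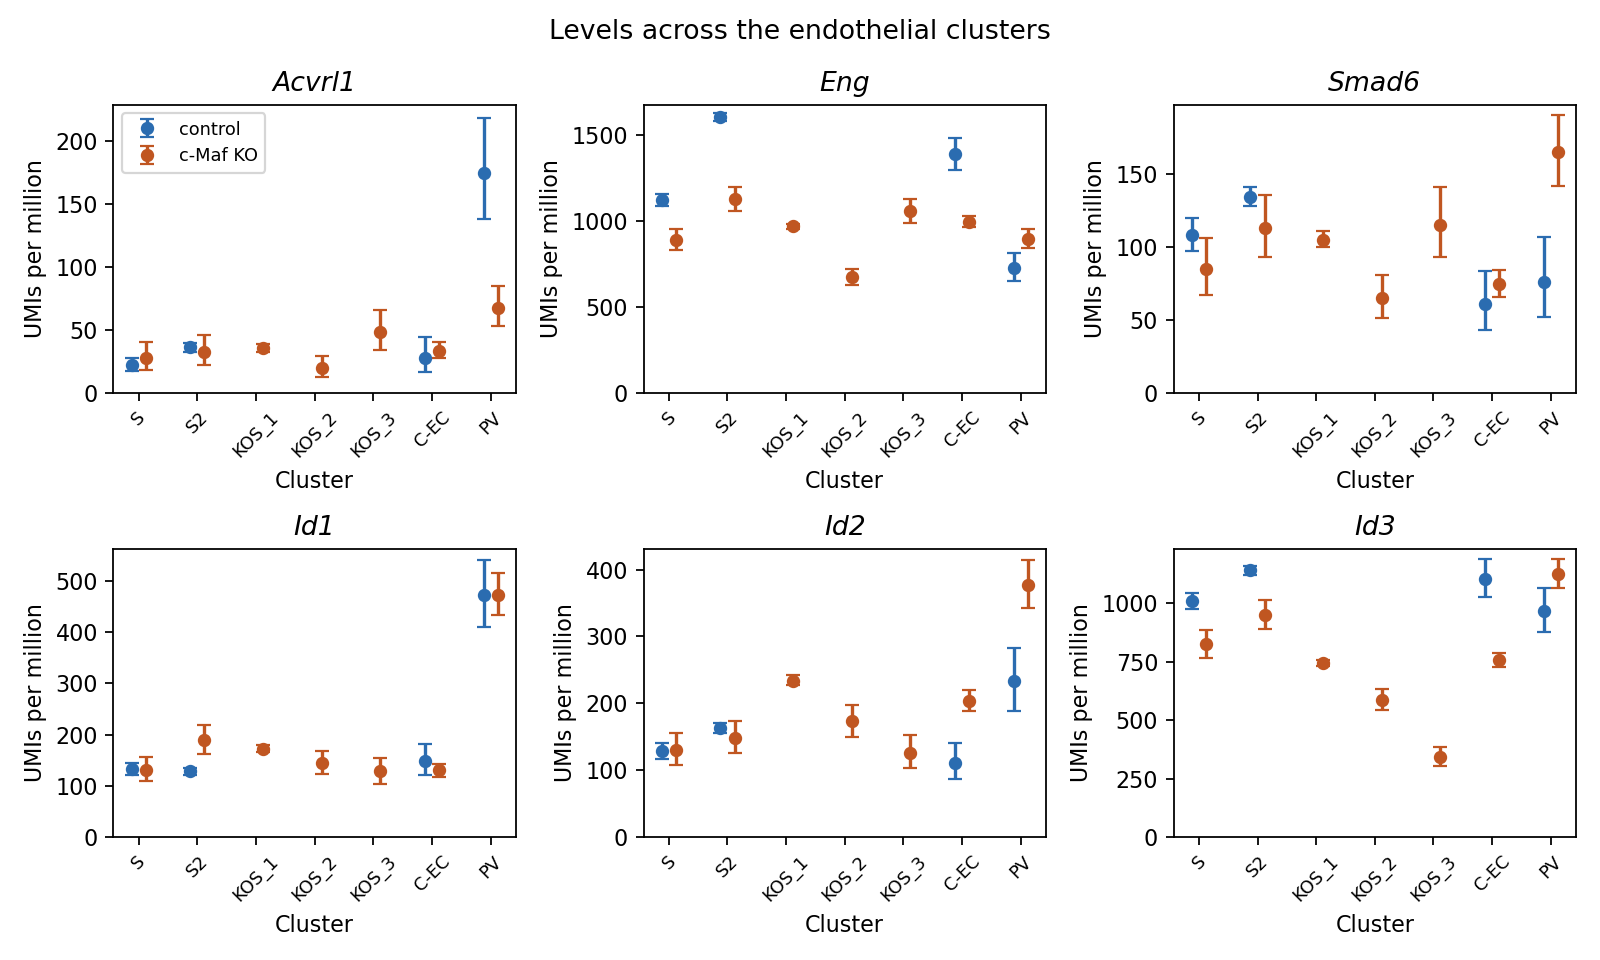
Levels of 6 genes in each endothelial cluster with 50 or more cells in that library, in CPM with 95% Poisson intervals, control in blue and c-Maf KO in orange. Acvrl1 and Id1 are highest in PV, Eng is lower in PV than in S2 in both libraries, and Id3 is lowest in KOS_3 at 342.

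Outside the endothelium, the genes divided by lineage. Id2, known for its need in innate and cytotoxic lymphocytes, was at 872 and 697 CPM in T-Foxp3, 787 and 815 in T-Gzm and 1599 in control Leukocytes_2, against 15.5 and 15.4 in B3 (control and c-Maf KO). Id3, known for a role in early lymphocytes, was at 247 and 246 in CLP, 174 and 145 in B1 and 68.0 and 64.0 in B3. Smad7 was at 294 and 235 in T-Cd6 and 86.0 and 77.1 in B3, with Bmpr2 there at 5.40 and 4.67. Id1 reached 113 and 84.8 in Kupffer cells (K) and 90.6 and 104 in Neutrophils, and 1.35 and 1.87 in B3. Acvrl1 was at 61.9 in control K, 67.6 in control Leukocytes_2 and 26.2 and 37.8 in Neutrophils, and 2.48 and 1.40 in B3. For Acvrl1 the intervals of control K and control Leukocytes_2 overlap.

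**Figure D4:**
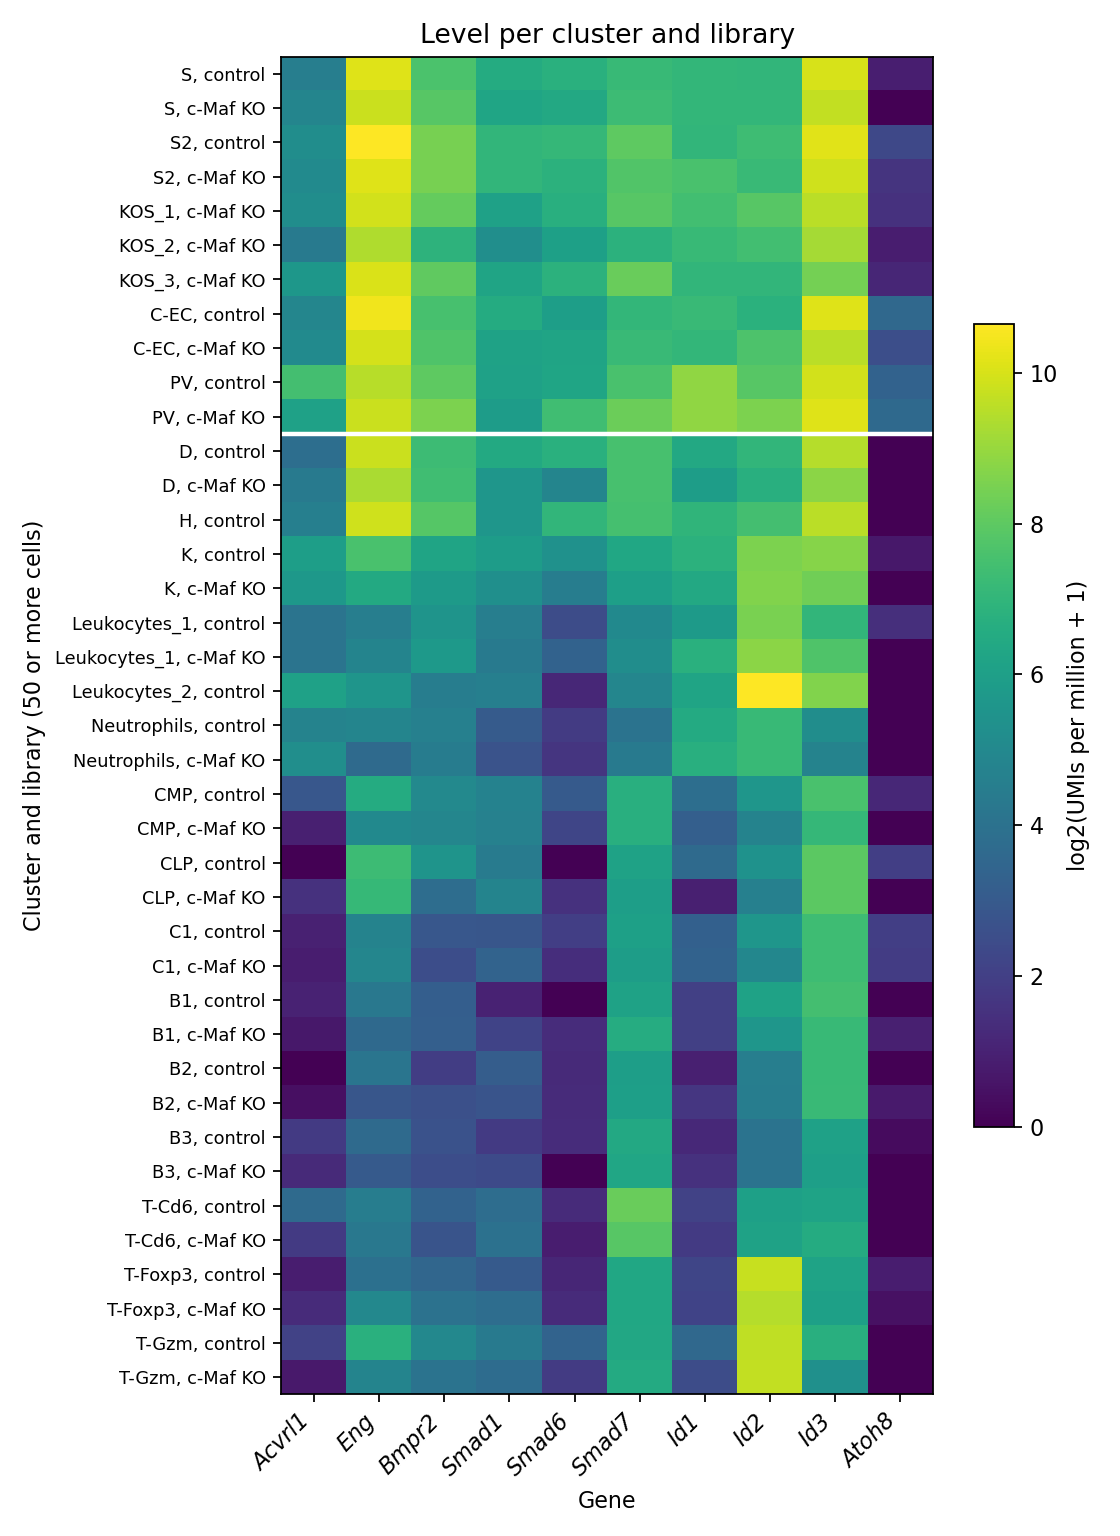
Level of the 10 genes in each cluster and library with 50 or more cells, as log2 of CPM plus 1 (color). A white line divides the endothelial clusters from the rest; Eng, Bmpr2 and Smad6 are bright mainly there and in the mixed clusters D and H, Id2 also in T-Foxp3, T-Gzm and Leukocytes_2, and Smad7 in T-Cd6.

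In Kupffer cells, 0 genes were called higher and 3 lower, beside 4.45% and 6.61% of genes: Eng (194 and 87.0, log2 ratio -1.15), Smad1 (58.1 and 38.0, -0.59) and Smad6 (41.1 and 21.7, -0.89). Summed endothelial markers in the same cells were 1387 and 861, and sinusoidal markers 2504 and 1174. In Kupffer cells with under 2 endothelial UMIs, Eng was at 28.4 and 28.8 with 26 and 12 UMIs. There Acvrl1 was 58.9 and 28.8 (54 and 12 UMIs, -0.99) and Id1 84.0 and 33.6 (77 and 14 UMIs, -1.28). In T-Gzm, 0 were higher and 3 lower, beside 1.72% and 5.78%: Eng (-1.99), Bmpr2 (-0.92) and Id3 (-1.40). There sinusoidal markers were 1054 and 115, and in cells with under 2 endothelial UMIs the ratios were -0.17, -0.27 and -0.20. All 3 were under 1.5-fold in those cells, where Eng had 22 and 13 UMIs.

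Leukocytes_1 cells (166 and 219) gave 2 genes called higher and 0 lower, beside 1.99% and 2.80%. Id1 was at 54.7 in control and 106 in c-Maf KO cells, a log2 ratio of 0.95 (0.61 to 1.31), and Id3 at 129 and 209.9, a ratio of 0.70 (0.47 to 0.93). Endothelial markers in control cells and c-Maf KO cells differed little there, and with under 2 endothelial UMIs the ratios were 0.96 and 0.85. Id1 was higher in each type, with a ratio of 0.75 among female-type and 1.36 among male-type cells; for Id3 these were 1.19 and 0.27. Summed neutrophil and monocyte markers were 14771 and 20155 and dendritic cell markers 6064 and 4833, and their part was not tested.

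Of 60 other genes of the pathway, 44 had enough UMIs in endothelial cells, and of those 5 were called higher and 15 lower, beside the same 14.2% and 15.5% of all genes. Their median ratio was -0.38 (log2), against -0.08 over all genes tested and -0.26 over the 10 endothelial markers. Among ligands (3 tested), Bmp2, which sinusoidal cells send to hepatocytes to control iron, was at 712 and 427 (-0.74), and its partner in that task, Bmp6, at 14.5 and 26.1 (0.84). Gdf2, the gene for BMP9, had 7 and 3 UMIs in endothelial cells and 13 and 4 over all annotated cells, and Bmp10 had 3 and 0 over all, too few to compare.

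Among other type I receptors (3 tested), 2 were lower, Acvr1 (46.0 and 29.4, -0.65) and Tgfbr1 (25.3 and 16.6, -0.61). Type II and accessory receptors (5 tested) held 3 lower genes: the activin receptor Acvr2a (23.5 and 14.1, -0.73), the TGF-beta receptor Tgfbr2 (180.1 and 79.5, -1.18) and betaglycan, Tgfbr3 (157 and 51.2, -1.62). None of 4 other SMADs was called, though Smad4, the shared partner, was at 108 and 78.4 (-0.46), and Smad5, the companion of Smad1, at 46.6 and 32.7 (-0.51). The ratios of Tgfbr2 and Tgfbr3 were larger in size than those of Acvrl1, Eng or Bmpr2.

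Of 12 antagonists and brakes tested, Bmper, a secreted BMP modulator, was higher (3.08 and 12.2, 1.97), and Ski (112 and 69.1, -0.69) and Pmepa1 (34.7 and 16.4, -1.08), which restrain SMAD signalling, were lower. Of 17 other endothelial genes known to respond to BMP9 or ALK1, 3 were higher and 7 lower. Id4 was at 130.1 and 28.2 (-2.21), a larger ratio than those of Id1, Id2 and Id3, and Tmem100, an ALK1 target, at 9.42 and 2.87 (-1.71). Gja4 (114 and 57.5, -0.99), Unc5b (7.94 and 4.02, -0.98), Angpt2 (26.2 and 15.3, -0.77), Apln (2.22 and 1.02, -1.11) and the VEGF receptor Flt1 (905 and 537, -0.75) were lower too. Gja5 (3.33 and 6.41, 0.94), Esm1 (8.44 and 17.0, 1.01) and the cell cycle inhibitor Cdkn1a (39.8 and 63.0, 0.66) were higher.

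Among 6 tested bHLH partners that Id proteins hold, only Tcf15, a factor of capillary endothelium, was called, at 6.16 and 46.4 (2.91). The widely expressed E proteins Tcf3 (64.5 and 78.2) and Tcf4 (662 and 738) differed little. The summed 18 immediate-early genes were 3855 and 3504 in endothelial cells, but 1721 and 2318 in S, 4391 and 2744 in S2 and 8619 and 6607 in PV. Their part in the Id differences was not tested. Sinusoidal markers differed in the same cells (13885 and 4059, 8 of 10 lower), as did cycling markers (249 and 742, 10 of 10 higher), Kupffer markers (315 and 32.2) and hepatocyte markers (184 and 64.2). Large vessel markers (788 and 1154, 4 of 10 higher and 2 lower) and B lineage markers (51.1 and 108, 7 of 8 tested higher) summed higher in c-Maf KO cells.

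Across 39 sums of a cluster in a library, the genes most alike in pattern were ranked by Pearson r of log2 of CPM plus 1, as a description without a test, since the sums share libraries and depth. The closest of 11995 genes to Acvrl1 was Id1 (r 0.90), then Ctbp2 (0.89) and Colec12 (0.88). For Id1 they were App (0.96), Ifitm3 (0.95) and Anxa3 (0.94). Eng was closest to Egfl7 and Cmtm8 (each 0.99) and Amotl1 (0.98), Bmpr2 to F11r, Cdc42bpb and Stard9 (each 0.97), and Smad6 to Sox18, Ecscr and Arhgef15 (each 0.97). For Smad1 they were Pld2 (0.94), Mib1 and Nrp1 (each 0.93), for Smad7 Desi2 (0.89), Zkscan1 and Zzz3 (each 0.88), for Id2 Ckb (0.84), Rab8b and Myl6 (each 0.82), and for Id3 Rab12, Armcx3 (each 0.92) and Laptm4b (0.91). Atoh8 had too few UMIs to rank. Over single endothelial cells the 45 pairs of the 10 genes had r from -0.04 to 0.10 in thinned control and -0.02 to 0.11 in thinned c-Maf KO cells. At full depth r ran from 0.00 to 0.28 in control and from -0.01 to 0.30 in c-Maf KO cells.

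In the GENCODE M21 annotation of GRCm38, Acvrl1 (chr15:101128522-101145336, plus strand) overlaps Gm16031 on the opposite strand. Eng (chr2:32646595-32682669, plus strand) overlaps Fpgs on the opposite strand and Mir1954, Gm47291 and Gm26236 on its own, and Bmpr2 (chr1:59763400-59879014, plus strand) overlaps Gm38125. The sources used here do not say whether counting used strand, so UMIs of these 3 genes could include an overlapping gene. That annotation holds no gene overlapping Smad1, Smad6, Smad7, Id1, Id2, Id3 and Atoh8.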

How the data were processed

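Per the labels, cells were sorted and sequenced after droplet capture. The authors deposited whole UMI counts per gene and barcode for each library, and an annotation with cluster names and the percent of mitochondrial UMIs per cell, per the file headers. The submitters' processing notes name Cell Ranger 4.0.0, Seurat 3.2.3, FastQC 0.11.3 and the mm10 build, with no role. The control library held 54143192 UMIs in 9038 barcodes (7669 annotated) and the c-Maf KO library 60281713 in 9058 (8166 annotated). Median mitochondrial shares of endothelial cells were 7.35% and 6.73%. Only annotated cells were used, and no doublet caller was run; leaving out cells rich in other cells' transcripts was an alternative.

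UMIs were summed per cluster and library and divided by total UMIs. Ratios used 0.5 added UMI and exact conditional binomial intervals, and shares used Clopper-Pearson intervals. With 1 library per group no p-value was computed. For shares, each cell was thinned to 1128 UMIs, a depth that 10% of endothelial cells do not reach, which left out 363 control and 231 c-Maf KO cells. The rule for the 10 genes uses no measured value, but they and the lists were chosen with earlier results of these data known. Named genes are the 10 members, every called gene of the pathway and bHLH lists, and the 3 most alike genes, among those with at least 200 UMIs, for each member. Smad4, Smad5, Tcf3, Tcf4, Gdf2 and Bmp10 fall outside this rule and were named after their values were seen. Scripts were tested on simulated data. Python 3.11.15, numpy 2.4.6, scipy 1.17.1, pandas 2.3.3 and matplotlib 3.10.9 were used, with R 4.3.3 and edgeR 4.0.16 for TMM normalization as an alternative.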

Additional observations from a re-analysis of the deposited data

Results flagged for a closer look

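Ratios below passed the 1.5-fold size rule in one cluster and had the opposite sign from a ratio of the same gene that passed it in another. Whether the clusters differ was not tested, since each genotype has 1 library. All are log2 ratios of c-Maf KO over control.

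Eng was 1.11 in T-Foxp3, and -1.41 in B2, -1.52 in CMP, -1.15 in K, -1.20 in Neutrophils and -1.99 in T-Gzm. Summed endothelial markers moved with it in T-Foxp3 (111 CPM in control and 223 in c-Maf KO), CMP (524 and 322), K (1387 and 861), Neutrophils (226 and 155) and T-Gzm (589 and 219.9), but not in B2 (169 and 203). In cells with under 2 endothelial UMIs, each of these clusters held under 50 Eng UMIs, too few for a call. There the Eng ratio was -0.74 in T-Foxp3 (23 and 14 UMIs, interval -1.83 to 0.26) and 0.03 in CMP (9 and 8 UMIs, -1.55 to 1.57). It was 0.05 in K (26 and 12 UMIs) and -0.17 in T-Gzm (22 and 13 UMIs). In Neutrophils it was -1.98 (11 and 4 UMIs) and in B2 -1.06 (24 and 14 UMIs).

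Smad1 was 0.87 in T-Foxp3 (17 and 35 UMIs, interval 0.02 to 1.82), -0.85 in D (-1.66 to -0.09) and -0.59 in K (-1.18 to -0.08). In cells with under 2 endothelial UMIs, Smad1 was 0.39 in T-Foxp3 (11 and 15 UMIs) and -0.37 in K (35 and 12 UMIs). Those UMIs were too few for a call. Smad6 was 1.10 in PV, -1.91 in D and -0.89 in K. D is a small cluster of 56 and 72 cells with summed B lineage markers at 4475 and 5117 and sinusoidal markers at 8578 and 3841, and the part of either was not tested.

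Id2 was 0.87 in C-EC and 0.69 in PV, and -0.69 in C1 and -0.85 in CMP, where it had 73 and 28 UMIs. Id3 was 0.70 in Leukocytes_1, -0.69 in D and -1.40 in T-Gzm.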

How the results depend on the processing

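The counts over 10 genes are small and moved with the cells and the scale. Called lower were 2 genes in all endothelial cells, 1 with median of ratios scaling, 1 with TMM, 0 at 2-fold, 4 in sinusoidal clusters, 0 among female-type cells and 4 among male-type cells, and 1 (Atoh8) with the control mix of shared clusters. Called higher were 0, and 1 (Id2) with either median of ratios or TMM scaling, which correct log2 offsets of -0.09 and -0.10; Eng was then -0.52. Of the other pathway genes, 15 were lower, 6 at 2-fold and 5 with the control mix; 5 were higher, 2 at 2-fold, 3 in female-type cells and 2 with the control mix. The control mix counts only clusters with 50 cells in each library and so leaves out KOS_1, KOS_2 and KOS_3 and rests on c-Maf KO S and S2 cells that held Maf transcripts. For the other changes the cause was not tested. Over the 15 alternatives, Eng ranged from -0.86 to -0.45, Smad1 from -0.96 to -0.06, Id3 from -0.68 to -0.27, Id2 from -0.03 to 0.60, Id1 from -0.04 to 0.44, Bmpr2 from -0.70 to 0.10, Smad7 from -0.54 to 0.27 and Acvrl1 from -0.32 to 0.32. Eng kept its call in 9 and Smad1 in 12 of them. Those counts include no UMI minimum and a minimum of 200 UMIs, which cannot change the call of genes with this many UMIs. Cells with under 2 endothelial UMIs were an alternative chosen after seeing the data. So were PV cells with under 2 stellate UMIs. The splits of PV, C-EC, Leukocytes_1 and KOS_1 by type, and of KOS_1 over S and over S2, were too. With under 2 endothelial UMIs, Eng turned to 0.05 in K, 0.03 in CMP and -0.74 in T-Foxp3, each on under 50 UMIs. No paired analysis was possible because each group has 1 library. Depth limits Atoh8 in particular, at 61 and 60 UMIs.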
